A study of Mus musculus with 39 samples.

Results

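White fat was compared between mice with a drug-induced model of polycystic ovary syndrome (PCOS) and control mice, with both arms on vehicle, across all genes. The members were taken from the tissue and treatment labels, and came to 10 of the 39 libraries of the series, of which 6 were PCOS vehicle and 4 control vehicle. The mice were C57Bl6/J. In the PCOS vehicle arm letrozole, an inhibitor of aromatase, the enzyme that turns androgens into oestrogens, had been given before puberty, and vehicle was then given by mouth for 6 weeks from 12 weeks of age. The control vehicle arm received vehicle and is not labelled as having received letrozole. Both arms therefore had vehicle in common and no roxadustat, the drug that the rest of the series tests. Each library came from a separate mouse. The fat depot and the sex of the mice are not given in the labels used here. Poly-A RNA was sequenced, and the table of this comparison listed 25633 genes, of which 15603 passed a filter on low counts and were tested.

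White adipocytes store triglyceride that they take up or build from glucose, fructose and acetate. Citrate leaves the mitochondrion and is split by Acly, Acaca and Fasn build the chain from the product, and elongases such as Elovl6 and desaturases finish it. Fat tissue also holds progenitor cells, vessels and macrophages, and visceral depots are covered by mesothelium, a keratin-bearing lining. Letrozole given before puberty is used in mice because it leaves them with high androgen and low oestrogen.

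The 10 libraries held 13664552 to 19639234 reads each. Mouse 785 of the PCOS arm had the fewest reads, and reads in 14076 genes, against 16981 to 21471 genes in the other 9 libraries. This library also had the lowest weight when libraries were weighted by how well they fitted, at 0.235, and lay at the end of the first principal component. Results are therefore given with and without mouse 785. Mitochondrially encoded transcripts took 6.71 to 14.7% of reads in PCOS fat, with 8.45% in mouse 785, and 11.4 to 21.6% in control fat. Expression is in FPKM, the fragments of a gene scaled to its length and to the depth of its library. For PCOS fat, values are given as the lowest, median and highest of 6 mice, and for control fat as mice 778, 779, 789 and 802 in that order. Differences are on the log2(FPKM + 0.5) scale, PCOS minus control, from limma, and genes with an adjusted p under 0.05 count as called. The adipocyte identity of the tissue was measured first. Adipoq, which encodes adiponectin, was at 1045, 1656 and 2196 FPKM in PCOS fat and 1226, 1714, 1529 and 989 FPKM in control fat (adjusted p = 0.846). Plin1, the coat protein of the lipid droplet, was at 268, 341 and 458 FPKM in PCOS fat and 236, 299, 311 and 140 FPKM in control fat (adjusted p = 0.488). Fabp4, a fatty acid carrier, was at 1077, 1492 and 2356 FPKM in PCOS fat and 1983, 1653, 1735 and 2343 FPKM in control fat (adjusted p = 0.780). These 3 adipocyte genes were high in every library of both arms, and their arms overlapped. In bulk tissue, fewer cells of a type and less RNA per cell cannot be told apart.

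Of the 15603 genes tested, 54 were called, or 0.346%. PCOS fat was higher for 14 (0.0897%) and lower for 40 (0.256%). When library size was the plain sum of reads, the split among 45 called genes was 20 higher and 25 lower. Without mouse 785, 330 of 15521 genes were called (2.13%), 167 of them higher (1.08%) and 163 lower (1.05%), and these held all 54. The arms did not overlap for 220 genes that were higher in PCOS fat (1.41%) and for 271 that were lower (1.74%), and all 54 called genes were among these. Single mice moved the count: it was 23 without mouse 814, 26 without 770, 17 without 822, 14 without 796, 16 without 778, 16 without 779 and 11 without 802, against 77 without mouse 773 and 61 without 789. The 14 called rises became 1 without mouse 778 and 1 without mouse 802, while 15 and 10 falls were called in those fits. Only 8 genes were called in each of the 10 fits that left out 1 mouse, among them Krt19, Spon1, Rspo1 and Ptgds. The genes considered for naming were called and protein coding, with an established symbol and arms that did not overlap. They also had a mean of at least 1 CPM (reads scaled to the depth of the library, without gene length). Of them the 12 largest rises and 12 largest falls were named, so that some called genes without such a symbol fell by more. These 24 kept their direction in every other setting in which they were tested, where a required mean of 1 FPKM left 19 of them, and the number that stayed called ran from 3 without mouse 802, or with no filter on low counts, to 24 without mouse 785. Genes called only without mouse 785, and Fasn, Dgat2, Lpin1, Ucp1, Ctss, Cfd and Acta2, were chosen for naming after their values were seen. The authors' deposited table lists 419 genes at an adjusted p under 0.05, 206 higher and 213 lower, and 51 of the 54 are among them.

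**Figure D1:**
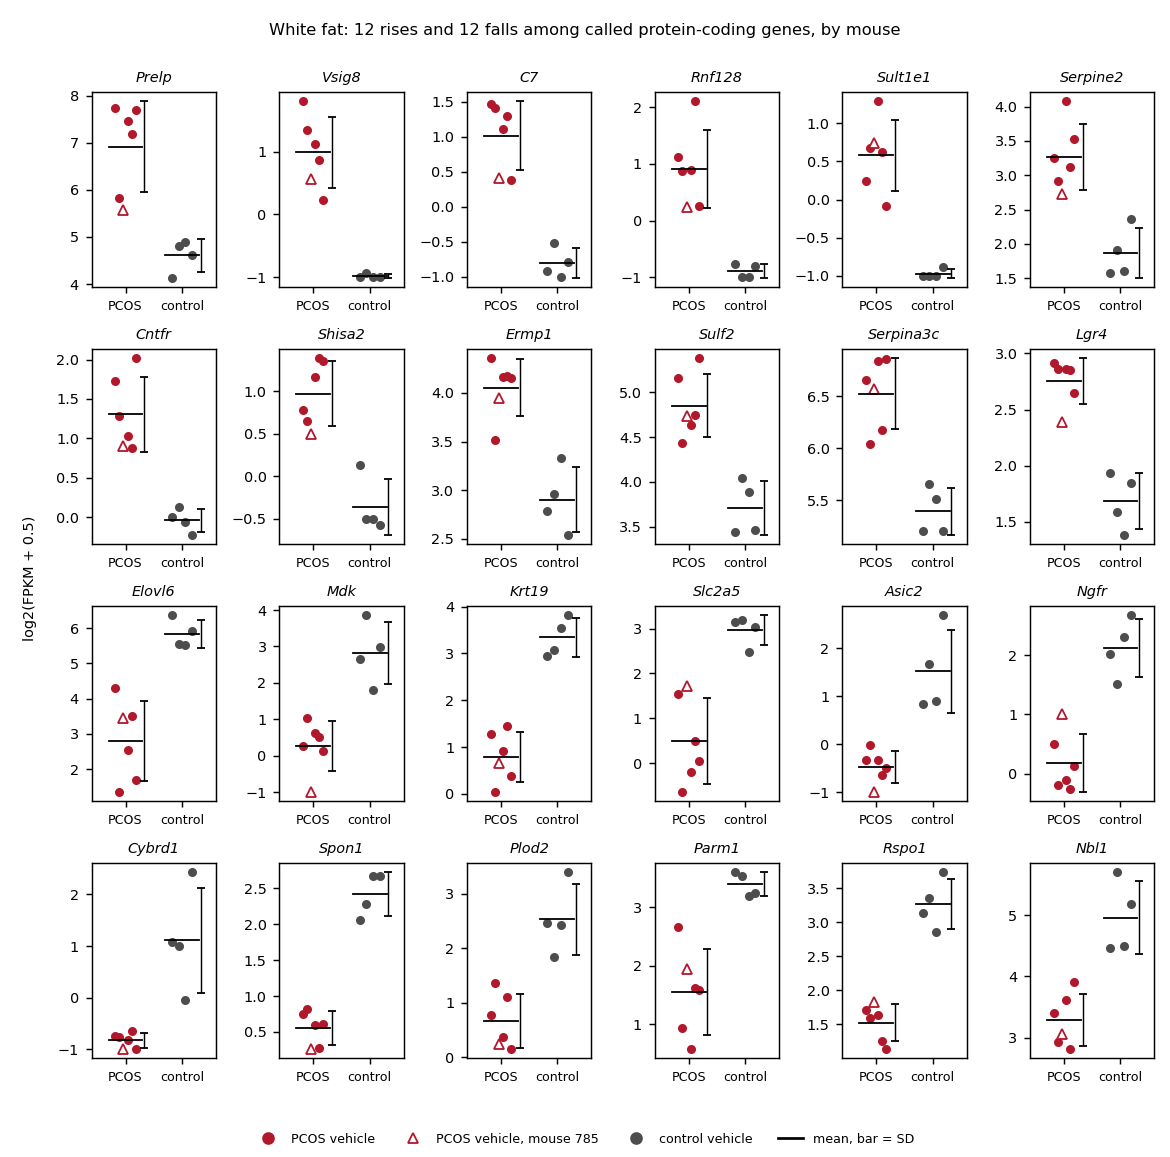
Expression by mouse, as log2(FPKM + 0.5), of the 12 largest rises (upper 2 rows of panels) and 12 largest falls (lower 2 rows of panels) among called protein-coding genes of white fat with an established symbol and a mean of at least 1 CPM, with PCOS vehicle (n = 6, red, mouse 785 as an open triangle) left of control vehicle (n = 4, grey); lines are means and bars SDs. In all 24 panels the arms do not overlap, which was a condition for being shown.

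The genes that build fatty acids were lower in PCOS fat. Elovl6 (ENSMUSG00000041220, chromosome 3, 129326004 to 129432144 on mm39), which lengthens newly made saturated fatty acids, was at 2.05, 7.88 and 19.1 FPKM in PCOS fat, against 82.0, 46.7, 45.1 and 59.7 FPKM in control fat. Its mean was 8.40 ± 6.42 FPKM in PCOS fat and 58.4 ± 17.0 FPKM in control fat (SD, n = 6 and 4), a difference of -3.03 (SE 0.50, adjusted p = 0.0289). The highest PCOS mouse was below the lowest control mouse. Without mouse 785 the difference was -3.16 (adjusted p = 0.0152). Elovl6 overlaps 2 other annotated genes, 1 on the same strand, so a part of its reads is uncertain. Slc2a5 (ENSMUSG00000028976, chromosome 4, 150203740 to 150228626), the fructose transporter, was at 0.138, 0.717 and 2.77 FPKM in PCOS fat, against 8.32, 8.71, 5.09 and 7.76 FPKM in control fat. It fell by 2.48 (SE 0.43, adjusted p = 0.0367). The highest PCOS value was that of mouse 785, and without it Slc2a5 fell by 2.73 (adjusted p = 0.00933). It was the only called member among 22 tested genes of sugar transport and glycolysis, whose median was -0.26.

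The promoters of Elovl6 and Slc2a5, which were called with all 10 mice, and of Thrsp and Slc25a1, which were called without mouse 785, are shown because these genes of the same route were lower together. They come from RefSeq on GRCm38.p6, run from 250 bases before to 50 after the annotated start, and read 5′ to 3′ on the gene's strand. Capitals mark CACGTG, the E-box, and CCAAT or its reverse ATTGG, the CCAAT box, each searched on both strands.
Elovl6, chr3:129532136-129532435, + strand: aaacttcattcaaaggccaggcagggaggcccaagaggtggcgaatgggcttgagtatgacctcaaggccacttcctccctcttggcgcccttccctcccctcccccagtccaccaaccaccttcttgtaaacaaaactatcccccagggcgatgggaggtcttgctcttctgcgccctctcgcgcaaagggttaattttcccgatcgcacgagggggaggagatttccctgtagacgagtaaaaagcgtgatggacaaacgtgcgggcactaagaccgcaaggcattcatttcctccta
Slc2a5, chr4:150119094-150119393, + strand: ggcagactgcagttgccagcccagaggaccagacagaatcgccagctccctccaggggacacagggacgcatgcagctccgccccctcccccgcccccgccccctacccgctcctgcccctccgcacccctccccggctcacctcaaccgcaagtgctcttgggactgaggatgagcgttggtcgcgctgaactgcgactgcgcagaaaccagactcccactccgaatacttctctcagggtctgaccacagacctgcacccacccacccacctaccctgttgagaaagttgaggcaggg
Thrsp, chr7:97417501-97417800, - strand: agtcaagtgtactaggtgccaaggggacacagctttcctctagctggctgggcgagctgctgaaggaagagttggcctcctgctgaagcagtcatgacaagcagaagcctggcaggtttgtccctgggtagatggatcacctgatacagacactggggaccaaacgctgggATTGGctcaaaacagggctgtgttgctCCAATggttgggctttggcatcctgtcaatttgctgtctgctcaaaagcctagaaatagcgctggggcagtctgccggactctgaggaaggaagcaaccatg
Slc25a1, chr16:17928170-17928469, - strand: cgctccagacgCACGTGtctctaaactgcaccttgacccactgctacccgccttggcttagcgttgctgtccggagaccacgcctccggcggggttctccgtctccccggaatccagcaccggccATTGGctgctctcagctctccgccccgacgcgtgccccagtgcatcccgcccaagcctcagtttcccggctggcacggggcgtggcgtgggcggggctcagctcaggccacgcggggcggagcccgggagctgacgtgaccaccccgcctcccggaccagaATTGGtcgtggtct
The windows of Elovl6 and Slc2a5 held neither motif, that of Thrsp held 2 CCAAT boxes, and that of Slc25a1 held 1 E-box and 2 CCAAT boxes. Of the 25 genes in the fatty acid synthesis list described next, 20 had a promoter in the RefSeq table, 26 windows in all. A CCAAT box was in 14 of these 26 (53.8%), against 37.4% of all 32851 windows, and an E-box in 3 (11.5%), against 7.15%. The sterol element TCACNCCAC was in 1 of the 26 (3.85%), that of Mlxipl, against 1.24% of all windows. No window was tested against the rest, and a match of letters is not a bound site.

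In the list of fatty acid and triglyceride synthesis, 23 of 25 tested genes were lower and 2 higher in PCOS fat, and the median difference was -0.82, against 0.0017 over all genes tested. Elovl6 was the 1 member called with all 10 mice, and 9 were called without mouse 785, all lower, with a median of -0.91. Over all genes tested, 7834 were higher and 7769 lower with all mice. Of all genes, 0.346% were called with all mice and 2.13% without mouse 785, and the counts of each list stand beside these shares. Acly, which splits citrate into acetyl-CoA, was at 20.6, 52.3 and 121 FPKM in PCOS fat, against 214, 243, 172 and 127 FPKM in control fat. Its difference was -1.88 (adjusted p = 0.0773), and without mouse 785 it fell by 1.96 (adjusted p = 0.0409). Acaca, the acetyl-CoA carboxylase that commits carbon to fat, was at 11.3, 18.6 and 45.2 FPKM in PCOS fat, against 82.0, 83.6, 74.0 and 46.5 FPKM in control fat. Its difference was -1.77 (adjusted p = 0.0546), and without mouse 785, the highest PCOS mouse, it fell by 2.0 (adjusted p = 0.00933). In both genes the arms did not overlap.

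Thrsp, a partner protein of fat synthesis that is abundant in lipogenic tissues, was at 227, 288 and 915 FPKM in PCOS fat, against 1084, 1200, 894 and 1113 FPKM in control fat. The 915 FPKM was mouse 785, which lay among the control mice, while the other 5 PCOS mice averaged 297 ± 73.3 FPKM (SD, n = 5). The difference was -1.6 with all mice (adjusted p = 0.0974) and -1.87 without mouse 785 (adjusted p = 0.00933). Slc25a1, the carrier that exports citrate from mitochondria, was at 121, 201 and 621 FPKM in PCOS fat, against 486, 584, 505 and 354 FPKM in control fat, and the 621 FPKM of mouse 785 was above every control mouse. Its difference was -1.18 (adjusted p = 0.273), or -1.50 without mouse 785 (adjusted p = 0.0226). Tkt, of the pentose phosphate route, and Me1, malic enzyme, both of which bear on the supply of NADPH, fell without mouse 785 by 1.87 (adjusted p = 0.00944) and 1.39 (adjusted p = 0.0340). Acss2, which activates acetate, and Fads1, a desaturase, fell without mouse 785 by 1.6 (adjusted p = 0.0320) and 0.88 (adjusted p = 0.0445). Fasn itself was at 95.1, 259 and 682 FPKM in PCOS fat and 755, 882, 781 and 451 FPKM in control fat, with a difference of -1.38 (adjusted p = 0.275) that missed the threshold without mouse 785 too (-1.65, adjusted p = 0.0637). The members above 0 were Dgat2 and Lpin1, which act late in triglyceride assembly, at 0.32 (adjusted p = 0.835) and 0.56 (adjusted p = 0.353).

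**Figure D2:**
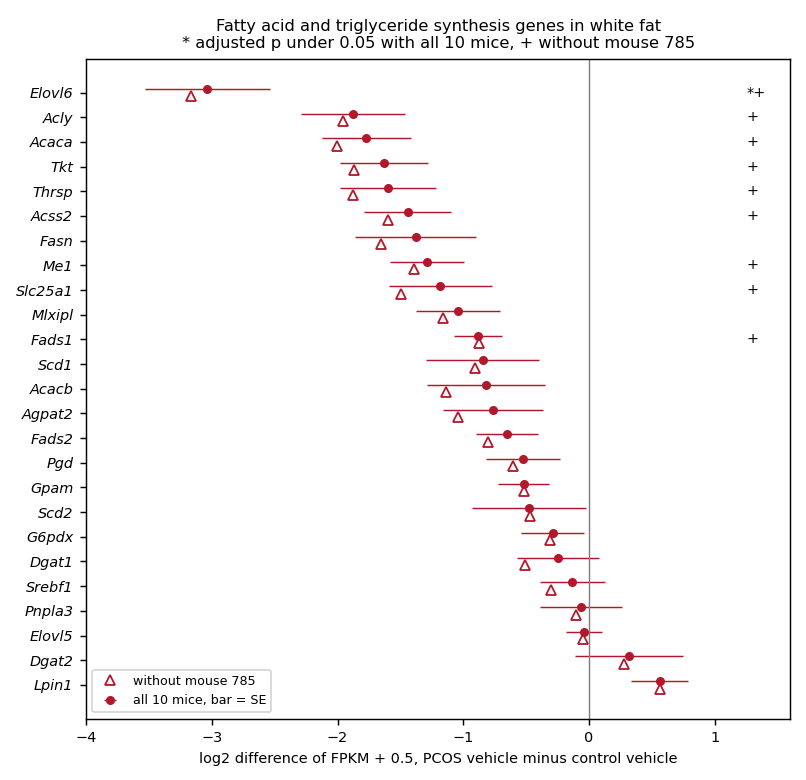
Difference in log2(FPKM + 0.5), PCOS vehicle minus control vehicle, for the 25 genes of the fatty acid synthesis list in white fat, with all 10 mice (filled circles, bars are SEs) and without mouse 785 (open triangles). Of the 25 genes, 23 lie left of 0, 1 is called with all mice and 9 without mouse 785.

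Pdhb, Pdk1, Mpc1 and Mpc2, which bear on the entry of pyruvate into the mitochondrion or its oxidation, were called without mouse 785 and not with all mice. Pdhb, a subunit of pyruvate dehydrogenase, was at 38.5, 44.9 and 81.4 FPKM in PCOS fat, against 101, 110, 95.2 and 112 FPKM in control fat. The arms did not overlap, and mouse 785 held the 81.4 FPKM. Its difference was -1.12 (adjusted p = 0.0522), and it fell by 1.27 without mouse 785 (adjusted p = 0.00384). Mpc1 and Mpc2, the subunits of the mitochondrial pyruvate carrier, were chosen after their values were seen. Both fell by 1.08 without mouse 785 (adjusted p = 0.0276 and 0.0171). Pdk1, the kinase that shuts pyruvate dehydrogenase down, fell by 1.07 without mouse 785 (adjusted p = 0.0140). Over 21 genes of pyruvate oxidation and the tricarboxylic acid cycle, 18 were lower, 0 were called with all mice and 2 without mouse 785, and the median was -0.33.

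All 58 tested nuclear genes of oxidative phosphorylation were lower in PCOS fat, with a median of -0.63, yet 0 were called with all mice. Without mouse 785 the median was -0.83 and 3 of the 58 were called, against 2.13% of all genes tested. Ndufc1, of complex I, fell by 1.02 (adjusted p = 0.0388), and Uqcrh and Uqcr10, of complex III, by 1.18 (adjusted p = 0.0378) and 1.28 (adjusted p = 0.0493). Uqcr10 shows the weight of mouse 785, which had 608 FPKM, against a median of 160 FPKM in PCOS fat and 276 to 494 FPKM in control fat. Cox7b, of complex IV, was at 39.6, 46.2 and 60.2 FPKM in PCOS fat and 98.5, 84.2, 70.0 and 188 FPKM in control fat. It did not pass, at -1.10 (adjusted p = 0.0891). The 15 tested mitochondrially encoded transcripts were likewise all lower with 0 called, at a median of -0.95, and mt-Nd3, a complex I subunit, was at 17.5, 66.2 and 100 FPKM in PCOS fat against 172, 108, 197 and 339 FPKM in control fat (adjusted p = 0.142). All 33 tested cytosolic ribosomal protein genes were lower with 0 called, at a median of -0.58. The mitochondrial share of reads given above was 6.71 to 14.7% in PCOS fat and 11.4 to 21.6% in control fat. Within PCOS fat the share was 14.7, 10.4, 9.89, 9.03, 8.45 and 6.71% in mice 814, 796, 773, 770, 785 and 822. In that order the nuclear list summed to 3458, 5411, 6230, 4733, 12990 and 7037 FPKM. The ribosomal list summed to 3268, 6676, 6051, 4006, 9324 and 5678 FPKM. The share counts the mitochondrially encoded transcripts themselves, so it is not separate from the fall of that list. Its part in the nuclear and ribosomal lists was not tested. The medians of the 3 lists stayed below 0 in all settings tried.

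Matrix-binding proteins and protease inhibitors were among the genes that rose. Prelp (ENSMUSG00000041577, chromosome 1, 133838042 to 133849152), a leucine-rich proteoglycan that anchors basement membranes to collagen, was at 46.8, 161 and 214 FPKM in PCOS fat, against 17.0, 27.3, 29.2 and 24 FPKM in control fat. It rose by 2.30 (SE 0.43, adjusted p = 0.0471), and by 2.57 without mouse 785 (adjusted p = 0.00933). Mouse 785 held the lowest PCOS value, which was still above every control mouse. Sulf2, which trims sulphate from heparan sulphate, was at 21.0, 26.3 and 41.1 FPKM in PCOS fat, against 10.4, 15.9, 14.3 and 10.5 FPKM in control fat, and rose by 1.14 (adjusted p = 0.0471). Prelp and Sulf2, and likewise Rspo1 and Plod2 described further on, each overlap another gene on the opposite strand. Serpine2, an inhibitor of thrombin and urokinase, was at 6.09, 8.62 and 16.4 FPKM in PCOS fat, against 2.48, 3.28, 2.56 and 4.65 FPKM in control fat, and rose by 1.40 (SE 0.26, adjusted p = 0.0471). Serpina3c, of a large and similar family of serpins, was at 65.6, 97.6 and 115 FPKM in PCOS fat, against 36.3, 49.9, 45.2 and 36.3 FPKM in control fat, and rose by 1.13 (adjusted p = 0.0457). Its near copies could share reads with it. Prelp, Sulf2, Serpine2 and Serpina3c each lost their call in 8 of the 10 fits that left out 1 mouse. The highest adjusted p in those fits was 0.173 for each.

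Of 16 tested serpins and fibrinolysis genes, 12 were higher, 2 were called with all mice and 3 without mouse 785, and the median was 0.36. Of 28 genes of the fibrillar matrix, 25 were higher with a median of 0.41, or 0.62 without mouse 785, but 0 were called with or without mouse 785. The lowest p of these belonged to Col5a3, a collagen V chain, at 28.8, 51.3 and 108 FPKM in PCOS fat and 23.3, 30.4, 28.7 and 10.3 FPKM in control fat (adjusted p = 0.238). The 24 tested proteoglycans and small matrix proteins had 10 higher and 14 lower members with a median of -0.12, and 14 higher and 10 lower with a median of 0.08 without mouse 785, with Prelp called higher and Spon1 called lower.

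Of the complement genes C7 was called with all mice, and more complement and macrophage genes were called without mouse 785. C7 (ENSMUSG00000079105, chromosome 15, 5018244 to 5093222), a component of the membrane attack complex, was at 0.80, 1.81 and 2.26 FPKM in PCOS fat, against 0.0289, 0.201, 0 and 0.0777 FPKM in control fat. It rose by 1.82 (SE 0.25, adjusted p = 0.0135), a difference that the 0.5 FPKM added before the log makes smaller than the ratio of the means. C6, the neighbour of C7 in the same complex, rose without mouse 785 by 1.59 (adjusted p = 0.0455). C4b, an early component, and C3ar1, the receptor for the fragment C3a, rose without mouse 785 by 1.72 (adjusted p = 0.0147) and 1.37 (adjusted p = 0.0184). Of 21 tested complement genes 16 were higher, 1 was called with all mice and 4 without mouse 785. Their summed level was 2769, 8044 and 32640 FPKM in PCOS fat and 10900 to 15910 FPKM in control fat. Most of that sum was Cfd, adipsin, which averaged 11380 FPKM in PCOS fat and 13070 FPKM in control fat (adjusted p = 0.806).

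All 22 macrophage markers were higher in PCOS fat, with a median of 0.52, or 0.66 without mouse 785. With all mice 0 were called, and without mouse 785 there were 5, all higher. Cd68, a lysosomal protein of macrophages, was at 2.04, 15.2 and 25.4 FPKM in PCOS fat, against 6.14, 5.85, 5.92 and 4.26 FPKM in control fat. The 2.04 FPKM was mouse 785, below every control mouse, and the other 5 PCOS mice were all above the control mice, so that Cd68 rose by 1.47 without mouse 785 (adjusted p = 0.0163) and did not pass with it (adjusted p = 0.459). Itgax, which encodes CD11c, was at 0.50, 2.67 and 5.65 FPKM in PCOS fat, against 0.739, 0.271, 0.775 and 0.487 FPKM in control fat, and rose by 1.75 without mouse 785 (adjusted p = 0.0226). Trem2, a lipid receptor, and Gpnmb, a glycoprotein of lipid-laden macrophages, were at 0 in mouse 785 and rose without it by 1.37 (adjusted p = 0.0196) and 3.07 (adjusted p = 0.00933). Lyz2, lysozyme, rose without mouse 785 by 1.23 (adjusted p = 0.0382). Adgre1, the F4/80 antigen, had arms that did not overlap, at 3.30, 5.33 and 10.6 FPKM in PCOS fat and 1.62, 3.06, 1.40 and 3.23 FPKM in control fat, but did not pass with mouse 785 (adjusted p = 0.165) or without (adjusted p = 0.0978).

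The summed level of the 22 macrophage markers was 556, 1322 and 1929 FPKM in PCOS fat and 624 to 1026 FPKM in control fat, so the arms overlapped. The markers include Lpl, which is also on the adipocyte list, so this sum is not of macrophages alone. Lyz2 made up 92.3 to 266.5 FPKM of it in PCOS fat and 67.8 to 93.0 FPKM in control fat. The lists of other blood cells held no called gene in either fit. Of 15 T and NK cell genes 11 were higher, of 8 B and plasma cell genes 6, and of 7 neutrophil and mast cell genes 3. Endothelial genes were higher in 14 of 16, with 0 called. Pecam1 alone passed without mouse 785 (0.67, adjusted p = 0.0378), where 2.13% of all genes tested were called. Outside the list, Mmp12, the macrophage elastase, was among the 16 genes with the largest differences called only without mouse 785. It was at 0.216, 7.26 and 18.8 FPKM in PCOS fat, against 0, 0.0124, 0.0352 and 0.187 FPKM in control fat. All 6 PCOS mice were above all 4 control mice, and the difference was 3.51 with all mice (adjusted p = 0.0546) and 4.13 without mouse 785 (adjusted p = 0.00021). Ctss, the lysosomal protease cathepsin S, and Atp6v0d2, a subunit of the proton pump of lysosomes and osteoclasts, rose without mouse 785 by 2.03 (adjusted p = 0.00189) and 2.37 (adjusted p = 0.0158). In both, mouse 785 held the lowest PCOS value, and for Atp6v0d2 it was 0.

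Mouse 785 was the lowest PCOS mouse for Lep, Sfrp5, Mest and Npr3, and the highest for the secreted products Adipoq, at 2196 FPKM, and Rarres2, at 64.8 FPKM. Lep, leptin, was at 97.1, 429 and 622 FPKM in PCOS fat, against 115, 132, 124 and 109 FPKM in control fat. Mouse 785 was below every control mouse, mouse 773 was at 138 FPKM, just above them, and the other 4 PCOS mice were at 298 FPKM or more. Leptin did not pass with mouse 785 (1.36, adjusted p = 0.311) or without (1.69, adjusted p = 0.0565). Sfrp5, a secreted Wnt inhibitor, was at 1.85, 70.5 and 117 FPKM in PCOS fat, against 0.508, 1.09, 0.697 and 1.26 FPKM in control fat. The arms did not overlap, and the difference was 4.60 (SE 0.94, adjusted p = 0.0597), or 5.36 without mouse 785 (SE 0.59, adjusted p = 0.00313). Mest, an imprinted gene known to be higher in enlarging adipocytes of the mouse, was at 2.39, 57.6 and 96.2 FPKM in PCOS fat, against 1.46, 3.42, 1.95 and 2.83 FPKM in control fat. It overlaps Copg2 and Mir335, so some of its reads are uncertain. Mouse 785 held the 2.39 FPKM, within the control range, and mouse 773 was next at 8.99 FPKM. Mest rose by 4.10 without mouse 785 (SE 0.58, adjusted p = 0.00933) and did not pass with it (3.42, adjusted p = 0.128). Npr3, the clearance receptor for natriuretic peptides, chosen after its values were seen, rose by 1.6 without mouse 785 (adjusted p = 0.0276), with mouse 785 lowest at 21.4 FPKM and mouse 773 next at 37.1 FPKM.

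Of 15 tested adipokines 9 were higher with a median of 0.34, or 0.54 without mouse 785, 0 were called with all mice and 4 without mouse 785, among them Sfrp5, Rarres2 and Ccl2. Rarres2, chemerin, had arms that did not overlap, at 25.6, 49.9 and 64.8 FPKM in PCOS fat and 17.2, 22.0, 17.9 and 24.2 FPKM in control fat, and rose by 1.03 without mouse 785 (adjusted p = 0.0468). Ccl2, a chemokine for monocytes, rose by 1.73 without mouse 785 (adjusted p = 0.0460), although the arms overlapped. Irs2, an adaptor of the insulin receptor, was at 5.52, 8.75 and 14.0 FPKM in PCOS fat and 2.13, 5.24, 3.22 and 2.07 FPKM in control fat, and rose by 1.53 without mouse 785 (adjusted p = 0.0244). It was the only member called without mouse 785 among 24 genes of insulin signalling, against 2.13% of all genes tested. With all mice 0 of the 24 were called, and their median was 0.09, or 0.15 without mouse 785. The other large rises called only without mouse 785 were Slc5a7, the choline transporter, at 3.12 (adjusted p = 0.0167), Lipf, gastric lipase, at 2.36 (adjusted p = 0.0226), and Folh1, a folate hydrolase, at 2.07 (adjusted p = 0.0330), and in all 3 mouse 785 was the lowest PCOS mouse.

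**Figure D3:**
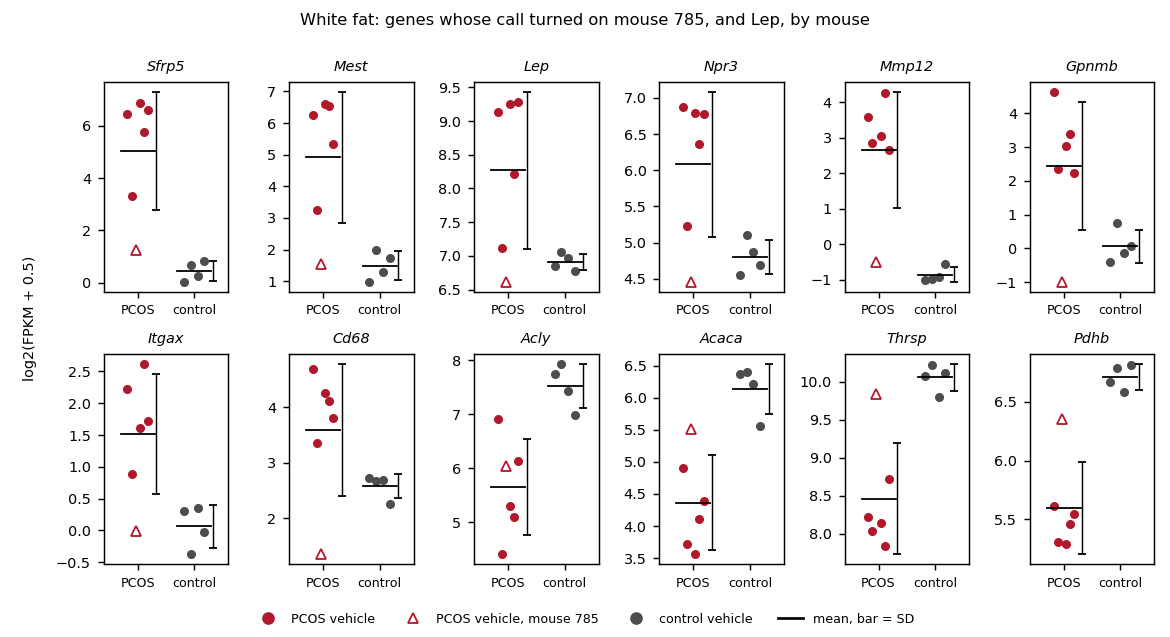
Expression by mouse, as log2(FPKM + 0.5), of 11 genes called without mouse 785 but not with it, and of Lep, which passed in neither fit, with PCOS vehicle (n = 6, red, mouse 785 as an open triangle) left of control vehicle (n = 4, grey); lines are means and bars SDs. Mouse 785 is the lowest PCOS mouse for Sfrp5, Mest, Lep, Npr3, Mmp12, Gpnmb, Itgax and Cd68, and the highest for Acaca, Thrsp and Pdhb.

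The other called rises covered receptors and membrane proteins. Lgr4, a receptor for R-spondins that strengthens Wnt signals, was at 4.72, 6.74 and 7.04 FPKM in PCOS fat, against 3.32, 2.50, 2.10 and 3.08 FPKM in control fat, and rose by 1.07 (SE 0.18, adjusted p = 0.0319). Cntfr, the binding subunit of the ciliary neurotrophic factor receptor, was at 1.33, 1.73 and 3.54 FPKM in PCOS fat, against 0.499, 0.597, 0.458 and 0.355 FPKM in control fat, and rose by 1.34 (adjusted p = 0.0457). Rnf128, the ubiquitin ligase GRAIL, was at 0.677, 1.35 and 3.81 FPKM in PCOS fat, against 0.0891, 0, 0 and 0.0750 FPKM in control fat, and rose by 1.8 (SE 0.31, adjusted p = 0.0367). Vsig8, an immunoglobulin-domain surface protein, was at 0.668, 1.51 and 3.0 FPKM in PCOS fat and had reads in 1 control mouse only, at 0.0239 FPKM, and rose by 1.98 (SE 0.27, adjusted p = 0.0118). It overlaps a gene on the opposite strand. Ermp1, a metallopeptidase of the endoplasmic reticulum, and Shisa2, of a family first known in frogs for holding Wnt and FGF receptors in that compartment, rose by 1.15 (adjusted p = 0.0381) and 1.33 (adjusted p = 0.0381). In all of these genes every PCOS mouse was above every control mouse, as the choice of named genes required.

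Mesothelial genes were lower in PCOS fat. Krt19 (ENSMUSG00000020911, chromosome 11, 100031636 to 100039491), a keratin of simple epithelia and mesothelium, was at 0.527, 1.24 and 2.22 FPKM in PCOS fat, against 7.16, 7.88, 11.2 and 13.6 FPKM in control fat. It fell by 2.56 (SE 0.29, adjusted p = 0.00453), and its adjusted p was at most 0.0328 whichever mouse was left out. Rspo1 (ENSMUSG00000028871, chromosome 4, 124880223 to 124902892), an R-spondin that binds the receptor Lgr4, was at 1.70, 2.55 and 3.05 FPKM in PCOS fat, against 8.25, 9.75, 6.73 and 12.8 FPKM in control fat. It fell by 1.74 (SE 0.21, adjusted p = 0.00633), with an adjusted p of at most 0.0375 in the fits that left out a mouse. Spon1 (ENSMUSG00000038156, chromosome 7, 113365235 to 113642605), the secreted matrix protein F-spondin, was at 0.699, 1.02 and 1.26 FPKM in PCOS fat, against 3.65, 4.37, 5.89 and 5.86 FPKM in control fat, and fell by 1.87 (SE 0.20, adjusted p = 0.00347). Spon1 is not on the mesothelial list and was counted with the small matrix proteins. For these 3 genes the lowest control mouse had more than the highest PCOS mouse, as the choice of named genes required.

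Of the 17 mesothelial markers 14 were lower, with a median of -1.18. Krt19 and Rspo1 were called with all mice, and without mouse 785 there were 7, all lower, with a median of -1.05. Msln, mesothelin, was at 0.383, 1.31 and 2.52 FPKM in PCOS fat, against 3.38, 7.97, 4.87 and 9.45 FPKM in control fat, and passed without mouse 785 (-1.81, adjusted p = 0.0312), with -1.99 and an adjusted p of 0.0546 when that mouse was kept. The keratins Krt8, Krt18 and Krt7 fell without mouse 785 by 1.62 (adjusted p = 0.0316), 1.71 (adjusted p = 0.0226) and 1.09 (adjusted p = 0.0278). Bnc1, basonuclin, fell without mouse 785 by 1.05 (adjusted p = 0.0340). Wt1, the transcription factor that marks mesothelium, was at 0.137, 0.587 and 0.958 FPKM in PCOS fat and 2.25, 2.51, 0.971 and 3.91 FPKM in control fat, and did not pass (adjusted p = 0.0924). The summed level of the 17 markers was 36.3, 68.4 and 86.9 FPKM in PCOS fat and 75.0 to 133.5 FPKM in control fat, and so overlapped. Of 9 general epithelial markers listed, 1 was tested, and their sum was 0 to 0.600 FPKM in PCOS fat and 0.759 to 2.12 FPKM in control fat. The 8 mammary epithelial markers listed summed to 41.3 to 202 FPKM in PCOS fat and 91.9 to 348 FPKM in control fat. Of these, Acta2, which smooth muscle also expresses, averaged 104 FPKM in PCOS fat and 163 FPKM in control fat, and 0 of the 4 that were tested were called in either fit.

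Of 7 tested developmental genes known to mark visceral fat 6 were lower with a median of -0.60. With all mice 0 were called, and without mouse 785 there were 2, Tcf21 and Bnc1. Wt1 and Bnc1 are also among the mesothelial markers above, so the 2 lists are not separate. Tcf21, a transcription factor, was at 0, 1.08 and 1.48 FPKM in PCOS fat, with the 0 in mouse 785, against 3.57, 4.36, 2.56 and 6.84 FPKM in control fat, and fell by 1.51 without mouse 785 (adjusted p = 0.0151; with it, adjusted p = 0.0622). The sum over the 8 visceral developmental genes was 4.65, 7.37 and 9.07 FPKM in PCOS fat and 9.66 to 20.6 FPKM in control fat, without overlap. The 7 subcutaneous developmental genes listed summed to 36.2 to 45.8 FPKM in PCOS fat and 36.65 to 41.85 FPKM in control fat. Gata5, a factor of the embryonic heart and mesoderm, fell by 1.02 (adjusted p = 0.0414), and was named after its values were seen. A difference between arms in the part of the fat pad sampled cannot be told apart from the treatment in these labels.

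Of 15 tested genes of neurotrophin and midkine signalling 7 were higher and 8 lower with a median of -0.03, or -0.23 without mouse 785, and Mdk and Ngfr were called in both fits. Mdk (ENSMUSG00000027239, chromosome 2, 91760150 to 91762642), the heparin-binding growth factor midkine, was at 0, 0.809 and 1.54 FPKM in PCOS fat, with the 0 in mouse 785, against 5.77, 14.0, 3.0 and 7.46 FPKM in control fat. It fell by 2.57 (SE 0.42, adjusted p = 0.0284), and by 2.32 without mouse 785 (adjusted p = 0.0121). Its relative Ptn, pleiotrophin, was at 0.129, 0.708 and 1.37 FPKM in PCOS fat and 4.49, 5.37, 0.624 and 13.8 FPKM in control fat, with mouse 789 among the PCOS mice, and did not pass (adjusted p = 0.173). Ngfr (ENSMUSG00000000120, chromosome 11, 95459644 to 95478561), the p75 neurotrophin receptor, was at 0.340, 0.507 and 1.51 FPKM in PCOS fat, against 3.55, 2.34, 4.44 and 5.87 FPKM in control fat, and fell by 1.95 (SE 0.30, adjusted p = 0.0211). Ngfr also marks Schwann cells, and 10 of 12 tested Schwann cell and nerve genes were lower with a median of -0.18, with Ngfr the only one called. The summed level of that list was 60.9 to 93.4 FPKM in PCOS fat and 81.8 to 91.45 FPKM in control fat. Asic2, an acid-sensing ion channel, fell by 2.0 (SE 0.34, adjusted p = 0.0319), at no more than 0.486 FPKM in PCOS fat and at least 1.28 FPKM in control fat.

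Nbl1, the secreted BMP inhibitor DAN, was at 6.53, 8.94 and 14.5 FPKM in PCOS fat, against 21.5, 51.6, 22.1 and 35.9 FPKM in control fat, and fell by 1.68 (SE 0.29, adjusted p = 0.0333). Parm1, a mucin-like protein known from rat prostate as androgen-regulated, was at 0.988, 2.53 and 5.80 FPKM in PCOS fat, against 11.6, 11.1, 8.68 and 8.95 FPKM in control fat, and fell by 1.84 (adjusted p = 0.0442). Plod2, which hydroxylates lysines of collagen, was at 0.609, 0.998 and 2.08 FPKM in PCOS fat, against 5.01, 3.07, 4.86 and 10.02 FPKM in control fat, and fell by 1.86 (adjusted p = 0.0367). Cybrd1, a ferric reductase, was at 0, 0.0782 and 0.136 FPKM in PCOS fat, against 1.6, 1.49, 0.468 and 4.90 FPKM in control fat, and fell by 1.94 (adjusted p = 0.0414). It was the 1 called member of 18 iron genes, and Steap4, Hmox1 and Heph, which reduce iron, release it from haem and oxidise it for export, rose without mouse 785 by 0.95 (adjusted p = 0.0468), 0.93 (adjusted p = 0.0276) and 0.78 (adjusted p = 0.0244).

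Genes of steroid action stood on both sides. Sult1e1 (ENSMUSG00000029272, chromosome 5, 87723828 to 87739453), the sulphotransferase that inactivates oestrogens, was at 0.446, 1.07 and 1.94 FPKM in PCOS fat and had reads in 1 control mouse only, at 0.0418 FPKM. It rose by 1.55 (SE 0.23, adjusted p = 0.0190), and by 1.52 without mouse 785 (adjusted p = 0.0121), with every PCOS mouse above every control mouse. Akr1c14, which reduces steroids at the 3-keto position, was at 0.547, 1.47 and 3.14 FPKM in PCOS fat, against 6.22, 9.56, 4.15 and 28.4 FPKM in control fat. It passed only without mouse 785 (-2.30, adjusted p = 0.0340), with an adjusted p of 0.0541 when that mouse was kept. Pgr, the progesterone receptor and a classic oestrogen target in the uterus, was at 0, 0.00428 and 0.160 FPKM in PCOS fat and 1.06, 0.661, 0.238 and 3.01 FPKM in control fat. The arms did not overlap, and it missed the threshold with mouse 785 (-1.47, adjusted p = 0.0808) and without (adjusted p = 0.0543). Esr1, oestrogen receptor alpha, was at 1.37, 2.56 and 3.67 FPKM in PCOS fat and 3.98, 5.56, 6.01 and 5.84 FPKM in control fat, also without overlap (-0.95, adjusted p = 0.107).

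Esr1, Greb1, Ptgds and Mmd2 were chosen after their values were seen. Greb1, an oestrogen-induced gene of breast cancer cells, was at 0, 0.0209 and 0.0408 FPKM in PCOS fat and 0.246, 0.248, 0.223 and 0.537 FPKM in control fat, and passed only without mouse 785 (-0.65, adjusted p = 0.0302). Ptgds, prostaglandin D synthase, had the lowest p of all genes tested and was at 0, 0.0356 and 0.154 FPKM in PCOS fat, against 1.10, 0.871, 1.36 and 1.04 FPKM in control fat. It fell by 1.51 (SE 0.15, adjusted p = 0.00239). Mmd2, a membrane protein of the progestin and adiponectin receptor family, had 0 reads in all 6 PCOS mice and 0.409, 0.484, 1.05 and 1.43 FPKM in control fat. With 3 reads per library as the most that a count of 0 allows, it was at least 34.9-fold lower in PCOS fat (adjusted p = 0.0184). Over the 19 tested steroid receptor and metabolism genes 10 were higher and 9 lower, with a median of 0.04, or 0.0023 without mouse 785. Markers of ovary, oviduct and uterus were lower in 6 of 7 tested genes with 0 called, and all 15 listed summed to 2.41 to 6.30 FPKM in PCOS fat and 5.03 to 12.4 FPKM in control fat. The part that this list plays in the steroid genes was not tested.

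Further large falls were called only without mouse 785. Ccl21a, a chemokine of lymphoid stroma, was at 0, 0.847 and 2.69 FPKM in PCOS fat and 12.9, 10.8, 2.46 and 36.4 FPKM in control fat, and fell by 3.50 without mouse 785 (adjusted p = 0.0244). Its near-identical copies could share reads. Cox8b, a cytochrome oxidase subunit of brown fat and muscle, fell by 2.61 without mouse 785 (adjusted p = 0.0468), with 360 FPKM in that mouse and a PCOS median of 55.5 FPKM, against 116 to 881 FPKM in control fat. Chchd10, a small mitochondrial protein, fell by 2.02 without mouse 785 (adjusted p = 0.0132), with 97.8 FPKM in that mouse and a PCOS median of 16.6 FPKM. H2-Q10, a class I histocompatibility gene, Aspg, an asparaginase, Ptpn5, a phosphatase, and Pdzk1ip1, a small membrane protein, fell without mouse 785 by 2.40, 2.39, 2.17 and 2.10 (adjusted p = 0.0248, 0.0147, 0.0468 and 0.00639).

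Of 9 brown adipocyte genes 8 were lower, with a median of -1.49, and Cox8b alone passed, without mouse 785. Ucp1, the uncoupling protein, was at 0, 2.31 and 67.4 FPKM in PCOS fat and 10.3, 5.07, 7.79 and 124 FPKM in control fat, with wide overlap (adjusted p = 0.651). Genes of lipolysis and the lipid droplet had 14 of 20 higher with a median of 0.12, and 10 of 20 higher with a median of -0.01 without mouse 785. Hilpda, which restrains lipolysis at the droplet, rose by 1.18 without mouse 785 (adjusted p = 0.0435). Fatty acid oxidation had 13 of 19 lower with a median of -0.13, and Cpt1a, which admits fatty acids to mitochondria, rose by 1.17 without mouse 785 (adjusted p = 0.0291). Angptl8 and Fabp5, of lipid uptake, fell without mouse 785 by 1.68 (adjusted p = 0.0476) and 0.83 (adjusted p = 0.0320). Targets of hypoxia-inducible factor had 26 of 37 higher with a median of 0.24 and 0 called, and without mouse 785 Hmox1 and Hilpda were among those that rose while Egln3, an oxygen-sensing hydroxylase, fell by 1.06 (adjusted p = 0.0387) beside Pdk1.

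Unfolded protein response genes were higher in 18 of 20, with a median of 0.21 and 0 called, and Edem1, which sends misfolded proteins to degradation, rose by 1.06 without mouse 785 (adjusted p = 0.0285). Cell cycle genes were higher in 21 of 25, with a median of 0.27 and 0 called in either fit. Ccnb2, a mitotic cyclin, had the lowest p of them, at 1.18, 1.92 and 2.32 FPKM in PCOS fat and 0.454, 0.440, 1.30 and 0.475 FPKM in control fat (adjusted p = 0.0836). Cholesterol synthesis, clock, heat shock, immediate early and interferon genes had 0 calls with all mice and 0 without mouse 785. The adipocyte markers had 14 of 18 higher with a median of 0.26, and 11 of 18 with a median of 0.15 without mouse 785, and progenitor markers 10 of 15 with a median of 0.24, with 0 calls in either fit. Smooth muscle and pericyte genes had 7 of 12 lower with a median of -0.58, or -0.28 without mouse 785, and 0 calls in either fit. Hepatocyte genes were higher in 8 of 9, and the 12 listed summed to 1338 to 3036 FPKM in PCOS fat and 747 to 1316 FPKM in control fat, without overlap. A varying part of that sum was 1 gene, Hp, which averaged 1047 FPKM in PCOS fat and 339 FPKM in control fat (adjusted p = 0.218). In mouse 796 Hp held 2382 of the 3036 FPKM. It held 611 of 2632 FPKM in mouse 785 and 487 of 2025 FPKM in mouse 773. Erythroid genes were higher in 6 of 6 and skeletal muscle genes in 7 of 9. The hepatocyte, erythroid and skeletal muscle lists held 0 called genes in either fit.

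**Figure D4:**
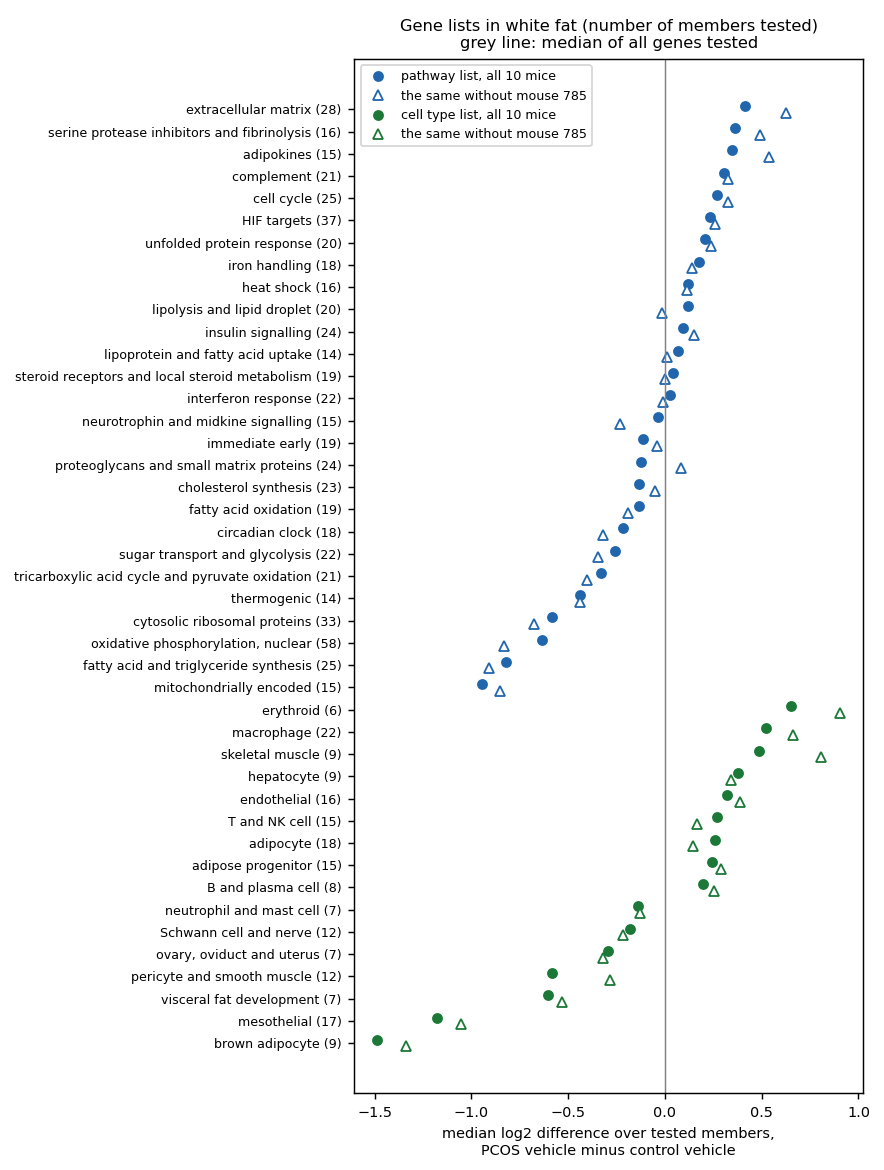
Median difference in log2(FPKM + 0.5), PCOS vehicle minus control vehicle, over the tested members of each gene list with at least 6 of them, for pathway lists (blue) and cell type lists (green), with all 10 mice (filled circles) and without mouse 785 (open triangles). The grey line is the median over all genes tested, 0.0017, and fatty acid synthesis lies at -0.82, mesothelial markers at -1.18 and macrophage markers at 0.52.

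The response of white fat was then set against that of liver and muscle from the vehicle arms, each with 4 PCOS and 4 control mice, by testing the difference between the tissue responses. Of 12703 genes tested in fat and liver, 80 differed (0.63%), 22 with the higher value in fat and 58 with the lower. With the plain sum of reads the split was 57 and 31. Against muscle, 10 of 12699 differed (0.0787%). Without mouse 785 these counts were 370 and 62. The same 6 mice gave fat and liver, and fat and muscle, and when limma was run on the differences within these mice, 5 genes differed against liver and 0 against muscle, with 871 and 397 at an unadjusted p under 0.05. That fit held 4 PCOS and 2 control mice. Of the genes named next, Mdk was the only one called against liver in it and 0 were called against muscle. With the mouse as a replicate block in the fit of all libraries, 78 and 9 genes differed and every gene named next passed. The correlation within mice in the block fit was near 0, at -0.0137 with liver and -0.0414 with muscle. The block fit is therefore close to the unpaired fit and is no separate check of pairing. Elovl6 was lower by 3.03 in fat and had a difference of 0.34 in liver, so that fat minus liver was -3.37 (SE 0.77, adjusted p = 0.0469). Slc2a5 (-2.62, adjusted p = 0.0391), Krt19 (-2.91, adjusted p = 0.0391), Mdk (-3.82, adjusted p = 0.0127) and Plod2 (-1.91, adjusted p = 0.0391) were also lower in fat relative to liver. Prelp (2.37, adjusted p = 0.0465), Lgr4 (1.40, adjusted p = 0.0172) and Rnf128 (2.15, adjusted p = 0.0186) were higher in fat relative to liver. Against muscle, Rnf128 was higher by 2.20 (adjusted p = 0.0304) and Spon1 lower by 1.83 (adjusted p = 0.00537), and the other tested genes of the 24 did not pass. Vsig8, Sult1e1, Serpina3c, Asic2, Cybrd1 and Rspo1 were not tested in liver or muscle because their counts there were too low.

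**Figure D5:**
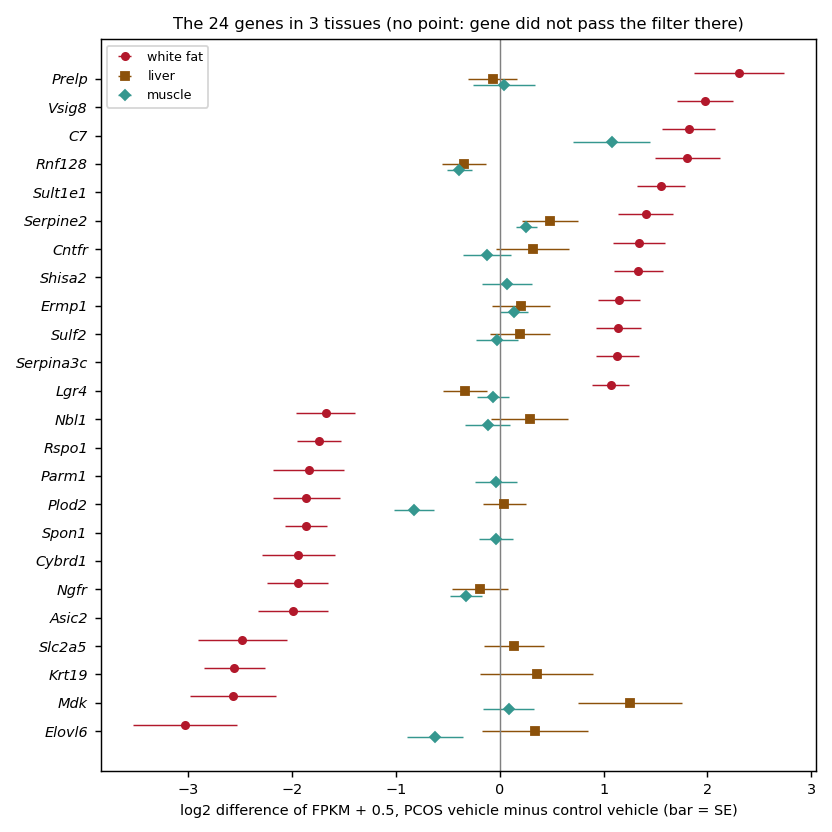
Difference in log2(FPKM + 0.5), PCOS vehicle minus control vehicle, of the 24 called protein-coding genes named above for their rise or fall in white fat (red circles), and of the same genes in liver (brown squares) and muscle (teal diamonds) where they were tested; bars are SEs. Elovl6 lies at -3.03 in fat and 0.34 in liver, and Rnf128 at 1.8 in fat and -0.35 in liver.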

How the data were processed

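Poly-A RNA of white fat from 6 PCOS vehicle and 4 control vehicle mice, each library a separate mouse by its label, was analysed from the FPKM values that the authors deposited. Per the submitters' processing notes, CASAVA 1.8, HISAT2 2.0.5, DESeq2 1.20.0 and the build mm39 were used. The read counter and annotation release are not given in the sources used here. The authors' FPKM times the deposited gene length, divided by what 1 read is worth in each library, gave whole reads for 100% of values above 0 (tolerance 0.001). These reads gave each library's depth and the filter, at least 10 depth-scaled reads in 4 libraries and 15 reads in all. Per the labels, both directional and non-directional preparation are described, without saying which applied, so reads of overlapping genes on opposite strands are uncertain. The labels' protocols name another RNA kit for fat than for liver and muscle.

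FPKM was used as deposited, with no further scaling; log2(FPKM + 0.5) was tested with limma 3.58.1 (with a mean-variance trend) in R 4.3.3, and p-values were adjusted by Benjamini-Hochberg over all genes tested. The authors' log2 fold changes and p-values come from their deposited table and are used only where it is named. Differences between tissues were tested as interactions. Same-mouse pairing was checked because 6 mice gave both tissues: the correlations of their deviations were -0.130 to 0.159 with liver and -0.206 to 0.168 with muscle. Named genes are the 12 largest rises and falls among called protein-coding genes with an established symbol, a mean of at least 1 CPM and arms that do not overlap, up to 4 called and 2 lowest-p members of each list, and Adipoq, Plin1, Fabp4 and Lep. Some genes that this rule names are not reported here. Members and lists were chosen with earlier results of these data known. The fits were tested on simulated data. Alternatives covered left-out mice, pseudocounts, filters, scalings, weights and blocks. The roxadustat arm entered only as 1 alternative.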

Additional observations from a re-analysis of the deposited data

Results flagged for a closer look

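In 211 groups of 4 or 6 mice, 23 held a highest or lowest mouse that stood apart from the rest, and chance alone gives about 1 in 20. Many of these genes were named because their call turned on mouse 785, so the number of groups that stand apart cannot be read against chance. Of these, 10 were mouse 785, 8 were control mouse 802, and 1 each mice 773, 814, 778, 779 and 789. PCOS mouse 785 stood apart for Cox8b at 360 FPKM, Fabp5 at 65.3, Pdhb at 81.4, Thrsp at 915, Slc25a1 at 621, Uqcrh at 204, Uqcr10 at 608, H2-Q10 at 21.6, Pdzk1ip1 at 1.57 and Chchd10 at 97.8 FPKM, each time as the highest PCOS mouse. The gaps were taken on FPKM, not on the log2 scale of the tests, which favours mice that lie high. Mouse 785 was the lowest PCOS mouse for Ctss at 7.15, Mmp12 at 0.216, and Trem2 and Tcf21 at 0 FPKM. It was not flagged for these. Of the other PCOS mice, 814 stood apart for Rnf128 at 3.81 FPKM and 773 for Pgr at 0.160 FPKM. Control mouse 802 stood apart for Sult1e1 at 0.0418, Krt8 at 4.88, Uqcrh at 367, Greb1 at 0.537, Ctss at 11.8, Ucp1 at 124 and Gata5 at 1.33 FPKM as the highest control mouse, and for Cd68 at 4.26 FPKM as the lowest. Control mouse 779 stood apart for Vsig8 at 0.0239 FPKM, 778 for Shisa2 at 0.599 FPKM and 789 for Ccnb2 at 1.30 FPKM. For Sult1e1 and Vsig8 the control arm held 1 read in all, so whichever mouse held it had to stand apart. Both are counted in the 23.

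In response to the PCOS model, white fat and liver differed by the unpaired interaction test for Prelp (fat minus liver 2.37), Rnf128 (2.15) and Lgr4 (1.40). They also differed for Elovl6 (-3.37), Mdk (-3.82), Krt19 (-2.91), Slc2a5 (-2.62) and Plod2 (-1.91), all on the log2 scale. White fat and muscle differed by this test for Rnf128 (2.20) and Spon1 (-1.83). In the fit on differences within the 6 mice that gave both tissues, Mdk alone stayed called against liver, and 0 against muscle. All of these genes were chosen for large called differences in the same white fat libraries, which favours large values here.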

How the results depend on the processing

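Of the 106 genes followed by name, 27 of them called, Cfd alone changed direction in an alternative in which it was tested. It was not called, at -0.74, and was at 0.0208 with quantile normalization; the cause was not tested. The 54 calls in white fat became 11 to 330 when 1 mouse was left out, 10 with no filter on low counts, 14 with a mean of at least 1 FPKM, 23 with voom on recovered reads, 83 with quantile normalization, 144 with all 3 fat arms in 1 fit, 191 at an adjusted p under 0.1, 800 with voom and sample quality weights, 940 with array weights and 419 in the authors' deposited table; the cause was not tested. The 80 fat-minus-liver calls became 28 to 370, and the 10 fat-minus-muscle calls 2 to 62, when 1 mouse was left out, and 578 and 870 with array weights. Within white fat no mouse is in both arms, so nothing pairs them. Between tissues, with the mouse as a replicate block, 78 genes were called against liver and 9 against muscle. The correlation within mice was near 0, so the block fit is close to the unpaired fit. Using differences within mice, a pairing that keeps only 6 mice, 2 of them controls, 5 and 0 were called. With the plain sum of reads the median of all genes moved by 0.0764. Groups of 6 and 4 mice and few reads for genes under 1 FPKM limit the precision.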
